A study of Mus musculus with 6 samples.

Results

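The genes described here are 10 genes of the BMP pathway: the ligand genes *Bmp2*, *Bmp4*, *Bmp5* and *Bmp7*, the antagonist gene *Nog* (Noggin), and the target genes *Id1*, *Id2*, *Id3*, *Msx1* and *Msx2*. They were taken by symbol from a table of 24421 gene symbols, and all 10 were found and passed the filter on low counts. The table holds RNAseq read counts of heads from E9.0 mouse embryos, with 3 WT libraries (SnrpB +/+) and 3 libraries of heterozygous mutants (SnrpB+/-, *Snrpb* ncc+/-). RNA for each library came from 2 untreated embryos of 1 genotype, which were not littermates and were chosen to match in somite count. In the mutants, exons of 1 *Snrpb* allele flanked by loxP sites are removed by the Wnt1-Cre2 transgene in neural crest cells and the neural tube. The surface ectoderm, blood and vessels of those heads keep both alleles. The labels name CD1 and also C57BL/6 as the strain, and whether WT embryos carried the transgene was not given. *Snrpb* encodes SmB/B′, a core protein of spliceosomal snRNPs, and the comparison asks whether BMP pathway transcripts differed before malformations could be seen.

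BMPs are secreted ligands of the TGFβ family that bind pairs of type I and type II serine/threonine kinase receptors. The type I receptor phosphorylates Smad1, Smad5 and Smad9, which enter the nucleus with Smad4 and act on target genes such as the *Id* and *Msx* genes. Noggin binds the ligands outside the cell and keeps them from their receptors. In the embryonic head, BMPs from the dorsal midline and the ectoderm are known for their part in patterning the dorsal neural tube, the neural crest and the facial primordia.

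The 6 libraries held between 36378803 and 74909774 counted reads. Levels are given as CPM, read counts scaled to library size with edgeR's TMM factors, and, where genes are compared with each other, as RPKM, which is CPM per kilobase of exon. Each of 10 head and anterior neural markers was detected in every library, *Otx2* between 104.9 and 141 CPM, while of 11 posterior trunk markers 3 passed the filter. *Snrpb* itself lay at 429.9, 438 and 414 CPM in WT and at 436, 412 and 430.3 CPM in mutants. Its log2 fold change (mutant minus WT) was −0.0036 ± 0.04 (SE). The edgeR adjusted p of *Snrpb* was 0.990, so whole heads showed no lower count of the targeted gene at this precision. By the paper, the deleted allele still gives a shorter transcript, and other tissues of the head keep both alleles. The paper also measured a significantly lower *Snrpb* level, by quantitative RT-PCR, in younger embryos with widespread heterozygous deletion. Why the whole-head counts here showed no such decrease was not tested. In bulk heads, fewer cells of a type and less RNA per cell cannot be told apart.

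None of the 10 genes differed between mutants and WT at an adjusted p of 0.05. With edgeR's quasi-likelihood test, 0 of 10 passed after Benjamini-Hochberg adjustment over the 15584 genes tested, against 0.00642% of all genes tested, which is 1 gene, *A3galt2* (named after its value was seen). At an unadjusted p of 0.05, 1 of the 10 genes, *Nog*, was lower in mutants, where 4.09% of all genes tested passed in that direction, and 0 were higher, where 4.34% passed. With DESeq2, 0 of 10 genes passed at an adjusted p of 0.05, where 0.651% of the 12908 genes that DESeq2 gave an adjusted p passed. At an unadjusted DESeq2 p of 0.05, 0 of 10 passed, beside 6.94% of the 15584 genes kept by the filter. *Nog* was also the only gene of the 10 whose 3 mutant values did not overlap the 3 WT values. Of all genes tested, 6.92% had every mutant library below every WT library and 8.32% every mutant library above, so a count of 1 in 10 is near that background.

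**Figure D1:**
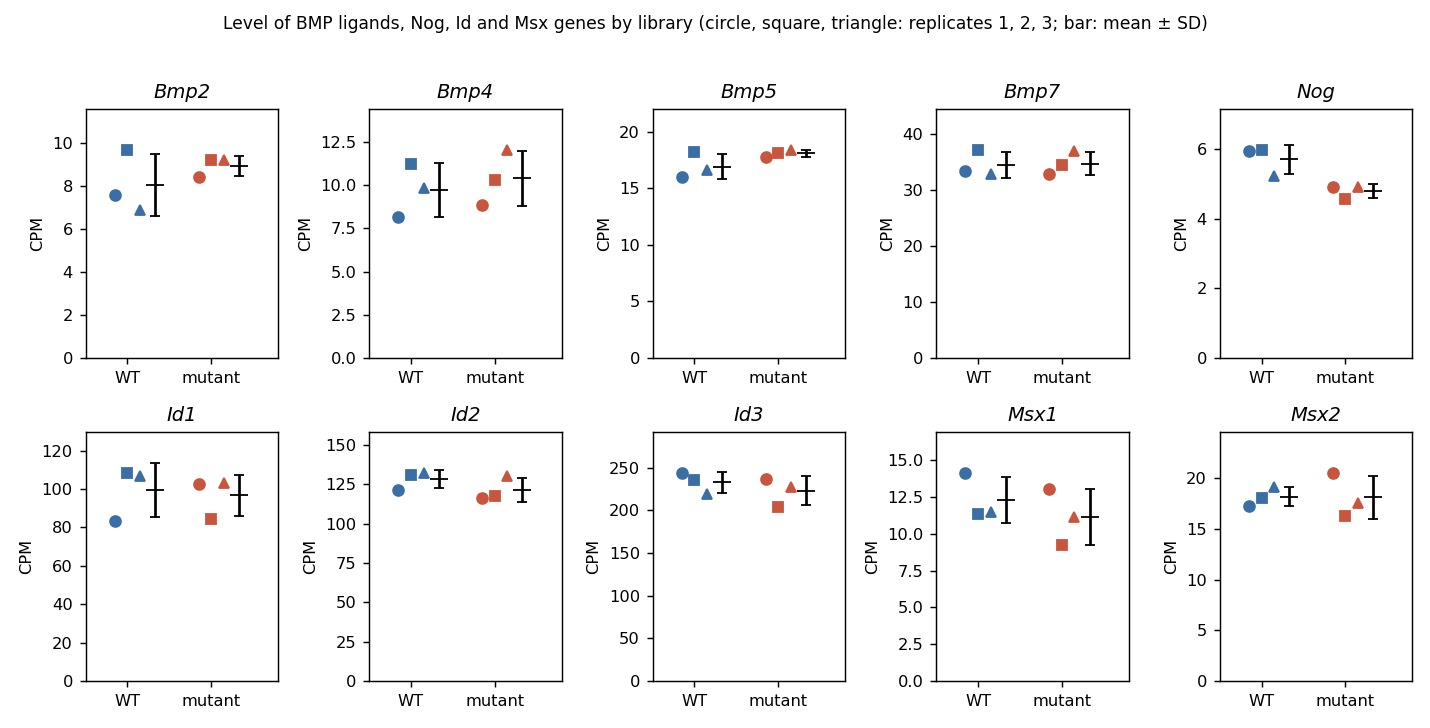
Level of each of the 10 genes in CPM (y axis, from 0, a scale of its own in each panel) in 3 WT and 3 mutant libraries, with circles, squares and triangles for replicates 1, 2 and 3 and the mean ± SD beside them. The groups overlap in all panels but *Nog*, where the mutant libraries lie between 4.56 and 4.90 CPM and the WT libraries between 5.22 and 5.96 CPM.

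The levels per exon length spanned the range from *Id3*, at 129.9 ± 7.14 RPKM in WT (SD, n = 3), to *Bmp2*, at 2.26 ± 0.405 RPKM. *Id3*, *Id1* (85.9 ± 12.1 RPKM in WT) and *Id2* (52.6 ± 2.34 RPKM in WT) stood above the other 7 genes. *Bmp7* followed at 8.58 ± 0.568 RPKM and *Msx2* at 5.55 ± 0.285 RPKM. Over the 6 libraries the ranges of neighbours in this order did not overlap from *Id3* down to *Msx2*. From *Msx2* down through *Bmp4* (4.32 ± 0.689 RPKM), *Bmp5* (4.20 ± 0.280 RPKM), *Msx1* (3.97 ± 0.506 RPKM), *Nog* (3.36 ± 0.249 RPKM) and *Bmp2*, each gene's range over the 6 libraries met that of the next. Compared within a library, *Msx2* was above *Bmp4*, *Msx1* above *Nog* and *Nog* above *Bmp2* in 6 of 6 libraries. The order of *Bmp4* over *Bmp5* held in 4 of 6 libraries and that of *Bmp5* over *Msx1* in 5 of 6, so the places of these 3 genes did not differ beyond their spread. In mutants the means kept the order of *Id3*, *Id1*, *Id2*, *Bmp7* and *Msx2*, at 124.4 ± 9.54, 83.4 ± 9.31, 49.8 ± 3.17, 8.65 ± 0.523 and 5.53 ± 0.657 RPKM.

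**Figure D2:**
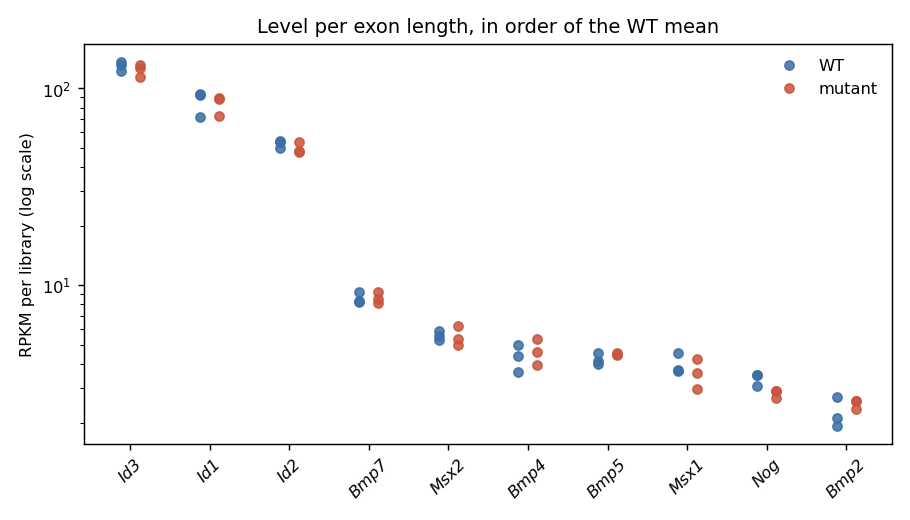
RPKM of each gene in every library (y axis, log scale), ordered by the WT mean, with WT libraries in blue and mutant libraries in red. The *Id* genes lie at least at 47.7 RPKM in each library, and the 7 other genes at most at 9.23 RPKM.

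Among the ligands, *Bmp2* and *Bmp4*, which form 1 close subgroup of the family and act in the dorsal neural tube and facial ectoderm, had the larger spread. *Bmp2* (chr2:133552159-133562885, plus strand, mm10) lay at 7.58, 9.64 and 6.87 CPM in WT and at 8.38, 9.18 and 9.21 CPM in mutants. All 3 mutant values fell between the highest and the lowest WT value. The WT mean was 8.03 ± 1.44 CPM and the mutant mean 8.92 ± 0.469 CPM (SD, n = 3 each), and the log2 fold change was 0.15 with a 95% interval of −0.14 to 0.44. *Bmp4* (chr14:46383520-46390669, minus strand) lay at 8.13, 11.2 and 9.81 CPM in WT and at 8.86, 10.3 and 12.0 CPM in mutants. WT replicate 1 was the lowest and mutant replicate 3 the highest library, and the groups overlapped. Its log2 fold change was 0.09, with an interval of −0.23 to 0.42. *Bmp4* shares 89 exon bases with *Gm15217* on the opposite strand, and the strand setting of the counting was not given.

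*Bmp5* and *Bmp7* belong to another subgroup of the family, whose members can pair with BMP2 or BMP4 in dimers. *Bmp5* (chr9:75775364-75900310, plus strand) lay at 16.0, 18.2 and 16.6 CPM in WT and at 17.8, 18.1 and 18.3 CPM in mutants. The mutant libraries were within 1 CPM of each other, and WT replicate 2 lay among them. The log2 fold change of *Bmp5* was 0.09, with an interval of −0.06 to 0.25. Its exons share 1878 bases with the antisense gene *Gm26903*, which has no row in the counts. *Bmp7* (chr2:172868012-172940321, minus strand) lay at 33.4, 37.1 and 32.9 CPM in WT and at 32.8, 34.4 and 37.0 CPM in mutants. These values covered nearly the same range in both groups, with a log2 fold change of 0.01 and an interval of −0.14 to 0.16.

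*Bmp7* made up the largest share of ligand transcripts per exon length in each library. Of the summed RPKM of the 4 ligands, *Bmp7* took 44.4% ± 1.56 in WT and 42.7% ± 0.504 in mutants (SD, n = 3 each). *Bmp4* took 22.3% ± 1.90 and 22.7% ± 1.88, and *Bmp5* 21.7% ± 0.616 and 22.2% ± 1.19. The smallest share was that of *Bmp2*, 11.6% ± 1.15 in WT and 12.4% ± 0.420 in mutants. The mix of ligands thus differed between the groups by less than 2 percentage points for each gene, and the summed level was 19.4 ± 1.83 RPKM in WT and 20.3 ± 1.41 RPKM in mutants.

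*Nog*, a gene known for its expression along the dorsal midline and the notochord, had the lowest unadjusted p of the 10. It lies at chr11:89300638-89302332 on the minus strand, with no other annotated gene over it. Its level was 5.93, 5.96 and 5.22 CPM in WT and 4.90, 4.56 and 4.90 CPM in mutants. The counts behind these values were 216, 350 and 193 reads in WT and 207, 347 and 326 reads in mutants. Each mutant library was below each WT library, and the gap between the lowest WT and the highest mutant value was smaller than the range of the WT libraries.

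The WT mean of *Nog* was 5.70 ± 0.422 CPM and the mutant mean 4.79 ± 0.195 CPM (SD, n = 3 each), which is 84.0% of the WT mean. In the edgeR fit its log2 fold change was −0.25 ± 0.11 (SE), with a 95% interval of −0.49 to −0.01. The unadjusted p was 0.0399, and the edgeR adjusted p was 0.554. DESeq2 gave −0.26 ± 0.14 (SE) and an adjusted p of 0.660. An exact two-sided permutation test of the 3 against 3 log2 CPM values gave 0.1 for *Nog*, the smallest p that its 20 assignments allow. The unadjusted edgeR p was 0.113 without WT replicate 2 and 0.125 without mutant replicate 2, with log2 fold changes of −0.22 in each case.

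The summed level of roof plate and dorsal neural markers, from cells in which *Nog* is expressed, was highest in WT replicate 1. Of the single markers, *Lmx1a* was lowest there (12.6 CPM). *Wnt1* was highest in mutant replicate 1 (12.6 CPM, against 10.4 CPM in WT replicate 1), and the others were highest in WT replicate 1. The summed level of these 8 genes, all tested and none at 0, ranged from 177.6 to 252 CPM in WT and from 174 to 189 CPM in mutants. None of the 8 passed an unadjusted p of 0.05. Without WT replicate 1, *Nog* had a log2 fold change of −0.23 and an unadjusted edgeR p of 0.0738. WT replicate 2, with the highest *Nog* value, had the lowest marker sum among the WT libraries (177.6 CPM). No marker list was made for the notochord. The part of this marker level in the *Nog* value was not tested.

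The ratio of summed ligand RPKM to *Nog* RPKM was 5.15, 6.10 and 6.05 in WT and 6.53, 7.51 and 7.50 in mutants. The mutant libraries were above the WT libraries without overlap, with means of 7.18 ± 0.565 and 5.77 ± 0.535 (SD, n = 3 each). This ratio holds the *Nog* values described above in its denominator, and it was formed after they were seen, so it is no separate result. The ratio of *Bmp4* alone to *Nog* was 1.03, 1.42 and 1.42 in WT and 1.36, 1.70 and 1.85 in mutants, and these groups overlapped.

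**Figure D3:**
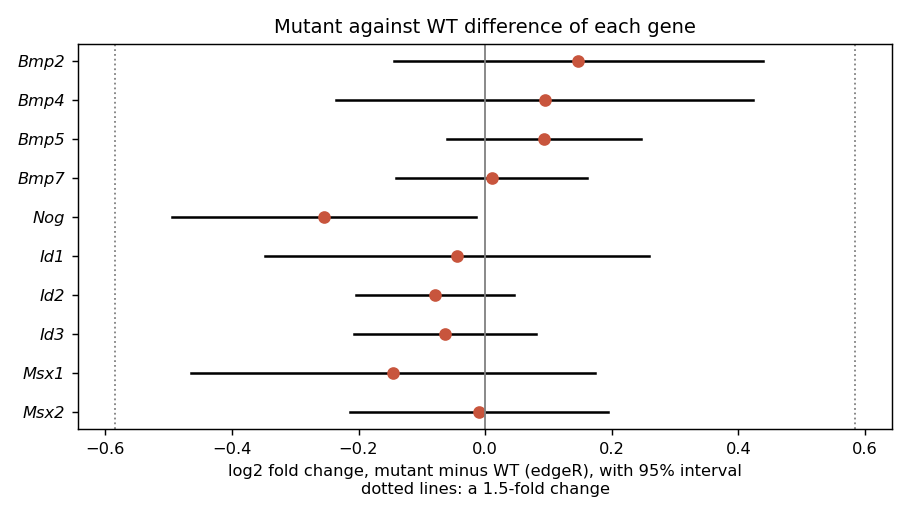
Log2 fold change of each gene, mutant minus WT, from edgeR (x axis, points) with its 95% interval (lines), and dotted lines at a 1.5-fold change in either direction. The 10 intervals lie inside the dotted lines, and 9 of them span 0, the exception being *Nog* at −0.49 to −0.01.

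The *Id* genes encode helix-loop-helix proteins without a DNA-binding region, which hold back basic helix-loop-helix factors and keep cells undifferentiated. *Id1* (chr2:152736251-152737410, plus strand) lay at 83.5, 108 and 107 CPM in WT and at 103, 84.3 and 103 CPM in mutants. Each group thus held 1 library near 84 CPM and a pair above 100 CPM. The log2 fold change was −0.04, with an interval of −0.35 to 0.26. *Id2* (chr12:25093799-25097140, minus strand) lay at 122, 131 and 132 CPM in WT and at 116, 118 and 130.3 CPM in mutants. Mutant replicates 1 and 2 were below all WT libraries and mutant replicate 3 was among them, with a log2 fold change of −0.08 and an interval of −0.20 to 0.05.

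*Id3* (chr4:136143497-136145755, plus strand) was the most abundant of the 10 genes. It lay at 244, 236 and 219 CPM in WT and at 237, 204 and 228 CPM in mutants. Only mutant replicate 2 was below the WT range, and the log2 fold change was −0.06, with an interval of −0.21 to 0.08. Of the 3 *Id* genes together, *Id3* took 48.5% ± 3.79 of the summed RPKM in WT and 48.3% ± 1.05 in mutants, *Id1* 31.9% ± 3.50 and 32.3% ± 1.18, and *Id2* 19.6% ± 0.512 and 19.4% ± 1.46 (SD, n = 3 each). Within WT alone the share of *Id3* ranged from 45.4% to 52.7% and that of *Id1* from 27.9% to 34.4%, wider than the difference between the group means. The summed level of the *Id* genes was 268 ± 10.5 RPKM in WT and 257.6 ± 19.8 RPKM in mutants.

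The *Msx* genes encode homeodomain repressors that are expressed in the dorsal neural tube, the cranial neural crest and the facial primordia. *Msx1* (chr5:37820485-37824583, minus strand) lay at 14.1, 11.3 and 11.5 CPM in WT and at 13.1, 9.23 and 11.2 CPM in mutants. It varied most of the 10 genes, with an SD of 0.21 in log2 CPM over the 6 libraries, and the mutant libraries alone ranged from 9.23 to 13.1 CPM. The log2 fold change was −0.15, with an interval of −0.47 to 0.17. *Msx2* (chr13:53466884-53473074, minus strand) lay at 17.3, 18.1 and 19.2 CPM in WT and at 20.5, 16.3 and 17.5 CPM in mutants. The mutant libraries included both the highest and the lowest *Msx2* value, and the log2 fold change was −0.01, with an interval of −0.21 to 0.19.

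*Msx2* was above *Msx1* per exon length in each library. The RPKM ratio of *Msx2* to *Msx1* was 1.16, 1.51 and 1.58 in WT and 1.48, 1.67 and 1.48 in mutants, and the groups overlapped. Of the summed *Msx* level, 9.52 ± 0.333 RPKM in WT and 9.13 ± 1.27 RPKM in mutants, *Msx2* made up 58.3% ± 4.08 and 60.7% ± 1.63 (SD, n = 3 each). Whole heads give a total over all regions, so these values say nothing of where in the head a gene was transcribed.

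By role, the 4 ligand genes had log2 fold changes above 0, with a median of 0.09. *Nog* and the 5 target genes were below 0, with a median over the targets of −0.06. Over the 10 genes the median was −0.03, and over all genes tested it was 0.00041, with 49.8% of genes below 0. The median size of the log2 fold change, regardless of sign, was 0.09 for the 10 genes and 0.08 for all genes tested. Adjusted p values of the 10 genes ranged from 0.554 to 0.987 with edgeR and from 0.660 to 0.998 with DESeq2. The exact permutation p of the other 9 genes ranged from 0.2 (*Id2*) to 1 (*Bmp7* and *Msx2*).

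The intervals set a limit to the size of a change in the whole-head level of the 10 genes, each taken alone. They set none for a change within the neural crest and neural tube cells that lost the allele. The 95% intervals of all 10 lay within a 1.5-fold change in either direction, between 0.710-fold (*Nog*) and 1.36-fold (*Bmp2*), and 74.9% of all genes tested had intervals within those limits. The biological coefficient of variation ranged from 0.0591 to 0.129, with a median of 0.0901 for the 10 genes and 0.0811 for all genes tested. Reads per gene and library ranged from 193 (*Nog*) to 15486 (*Id3*). For the genes with the most reads the intervals rest on the spread between pools more than on counting error, which takes a larger part for *Nog*.

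The direction of 4 genes turned on single libraries. *Bmp4* went from 0.09 to −0.02 on the log2 scale without WT replicate 1 and to −0.03 without mutant replicate 3. *Bmp7* went from 0.01 to −0.02 without WT replicate 1 or WT replicate 3 and to −0.04 without mutant replicate 3. *Id1* went from −0.04 to 0.02 without WT replicate 2, to 0.01 without WT replicate 3 and to 0.05 without mutant replicate 2. *Msx2* went from −0.01 to 0.03 without WT replicate 3, to 0.06 without mutant replicate 2 and to 0.01 without mutant replicate 3. All of these values were small beside their intervals, and none passed an adjusted p of 0.05.

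The highest and lowest values of the 10 genes were spread over the libraries of both groups. WT replicate 1 held the lowest value of 3 genes (*Bmp4*, *Bmp5* and *Id1*) and the highest of *Id3* and *Msx1*. Mutant replicate 2 held the lowest value of 4 genes (*Nog*, *Id3*, *Msx1* and *Msx2*). WT replicate 2 held the highest value of 4 genes (*Bmp2*, *Bmp7*, *Nog* and *Id1*).

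In WT replicate 1, the summed level of 9 cardiac markers was 12.0 CPM, against 58.1 and 74.4 CPM in the other WT libraries and 33.4, 70.6 and 123 CPM in mutants. All 9 were detected in each library, and of 8 tested none passed an unadjusted p of 0.05. The order of the 6 libraries by *Bmp4*, a ligand also made near the heart and pharynx, was that of the cardiac sum, which held for 1 of the 10 genes and was noticed after the values were seen. The sum of the surface ectoderm markers (9 of 9 tested) was also lowest in WT replicate 1, at 328 CPM. It was 448 and 451 CPM in the other WT libraries and 443 to 451 CPM in mutants. Of the single markers, *Grhl3* was highest in WT replicate 1 (7.03 CPM), *Trp63* and *Krt5* were not lowest there, and the others were lowest there. The 8 visceral endoderm markers, 7 of them tested, summed to 35.9 CPM there and to between 8.09 and 10.5 CPM in the other libraries. The part of these cell types in the BMP values was not tested.

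The neural crest markers, 8 of 8 tested, ranged from 295 to 382 CPM in WT and from 326 to 362 CPM in mutants when summed. Endothelial markers (7 of 7 tested) ranged from 231 to 282 CPM in WT and from 226 to 264 CPM in mutants, and erythroid markers (7 of 7) from 879.6 to 1494 CPM and from 889.8 to 1215 CPM. The head markers ranged from 471 to 569 CPM in WT and from 455 to 506 CPM in mutants. The 4 Y-linked genes, which follow the share of male embryos in a pool, ranged from 62.8 to 120.0 CPM in WT and from 111 to 228 CPM in mutants. Of the mutant libraries, only replicate 3 (111 CPM) lay within the WT range of the Y-linked sum. With the Y-linked level as a covariate, *Bmp2* went from 0.15 to −0.01 and *Nog* from −0.25 to −0.29 on the log2 scale. This covariate partly follows genotype, so that fit cannot fully tell sex share and genotype apart. The groups overlapped for each of these lists, and no list had a gene at 0 in all libraries or past an unadjusted p of 0.05.

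**Figure D4:**
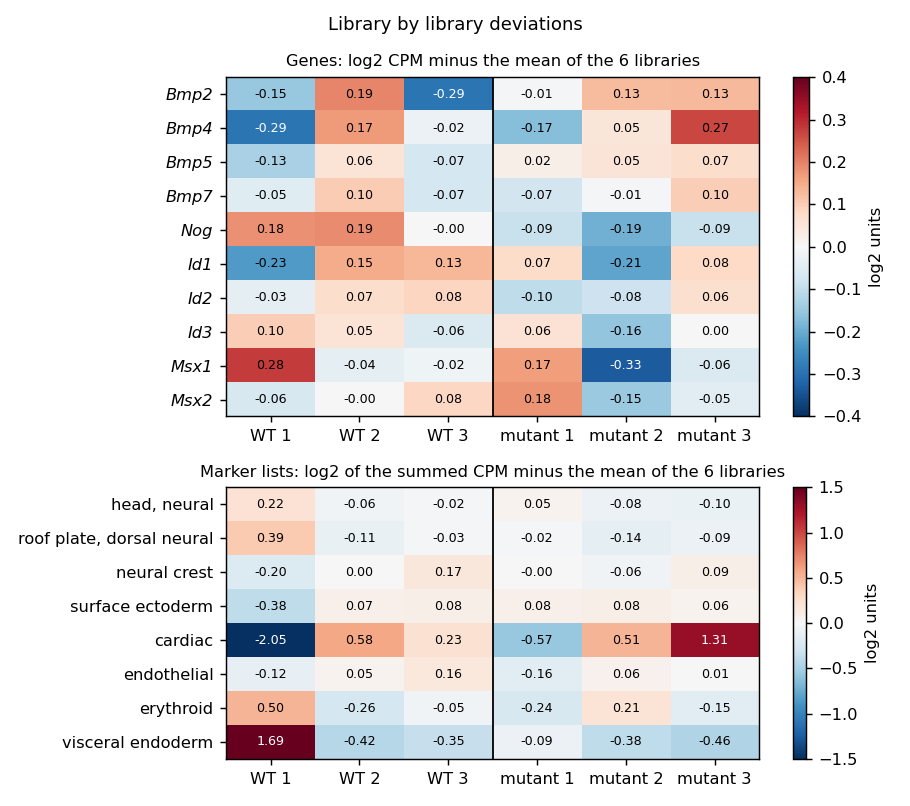
Each library's deviation from the mean of the 6 libraries in log2 units, for the 10 genes (top, log2 CPM) and for 8 marker lists (bottom, log2 of the summed CPM), with WT libraries left and mutant libraries right of the line and a colour scale for each panel. WT replicate 1 stands lowest for the cardiac sum (12.0 CPM) and for *Bmp4* (8.13 CPM), and highest for the visceral endoderm sum (35.9 CPM).

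The patterns nearest to the 3 most variable genes were found by the mean absolute difference of centred log2 CPM over the 6 libraries. Nearest to *Msx1* were *Ccdc13* (0.0328), *Zfp865* (0.0399) and *Samd4b* (0.0419). *Bmp4* was followed most closely by *Dok4* (0.0336), *Syndig1* (0.0400) and *3632451O06Rik* (0.0409), and among the genes nearest to *Bmp2* were *Acrbp* (0.0330) and *Rimbp2* (0.0410). With 6 libraries and 15584 genes to choose from, such nearness is a description only.

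The other genes of the pathway, 72 in 6 lists, also held no gene past an adjusted p of 0.05. Of 65 tested, 0 passed with edgeR after adjustment, and the lowest adjusted p was 0.437. At an unadjusted edgeR p of 0.05, 1 was higher (*Tbx2*) and 2 were lower (*Crim1* and *Tll2*) in mutants, which is 4.62% of the 65 beside 8.43% of all genes tested. DESeq2 put 0 past an adjusted p of 0.05 and 2 of 65 past an unadjusted one, where 6.94% of the genes kept by the filter passed. Their median log2 fold change was 0.0019, with 33 above and 32 below 0, and 47 of 65 intervals lay within a 1.5-fold change.

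Of 12 further ligand genes, 7 were tested, with a median log2 fold change of −0.10. *Bmp10*, *Bmp15*, *Gdf2*, *Gdf3* and *Gdf5* had between 0 and 9 reads per library and were not tested. *Gdf6*, a ligand of the roof plate and dorsal eye, lay at 1.73, 1.81 and 1.38 CPM in WT and at 1.97, 1.96 and 2.27 CPM in mutants. The mutant libraries of *Gdf6* were all above WT, with a log2 fold change of 0.33 ± 0.16 (SE) and an edgeR adjusted p of 0.632. *Bmp6*, a relative of *Bmp5* and *Bmp7*, lay at 2.01, 1.81 and 2.03 CPM in WT and at 1.68, 1.66 and 1.61 CPM in mutants, lower in each mutant library but with an edgeR adjusted p of 0.687. *Bmp6* shares 224 exon bases with *Txndc5* on the opposite strand. *Gdf10* had the highest mean CPM of this list and a log2 fold change of −0.10 (edgeR adjusted p = 0.885).

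All 11 receptor and co-receptor genes were tested, and their log2 fold changes lay between −0.16 and 0.07. The type I receptor gene *Bmpr1a* had the highest mean CPM, with 219 to 245 CPM in WT and 234 to 246 CPM in mutants. Its log2 fold change was 0.02 ± 0.05 (SE), with an edgeR adjusted p of 0.919. The type II receptor gene *Acvr2a* had a log2 fold change of −0.07 (edgeR adjusted p = 0.800). *Rgma*, which encodes a membrane-anchored BMP co-receptor, was at −0.16 and went to −0.04 without WT replicate 1.

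Of 22 extracellular modulators 20 were tested, with a median log2 fold change of 0.01, and *Chrdl2* and *Cer1* were not. *Crim1*, which encodes a transmembrane protein that binds BMPs, lay at 20.1, 20.6 and 20.5 CPM in WT and at 18.0, 19.1 and 18.1 CPM in mutants. Its groups did not overlap, with a log2 fold change of −0.15 ± 0.06 (SE), an unadjusted edgeR p of 0.0293 and an adjusted p of 0.524. *Crim1* shares 123 exon bases with *Fez2* on the opposite strand. *Tll2*, a metalloproteinase gene of the family that cleaves the antagonist Chordin, lay at 0.439, 0.392 and 0.405 CPM in WT and at 0.213, 0.197 and 0.256 CPM in mutants, with an edgeR adjusted p of 0.437. These *Tll2* values rest on few reads, and its log2 fold change was −0.88 ± 0.28 (SE). The abundant modulator gene *Fstl1* was at 0.02 (edgeR adjusted p = 0.979), while *Chrdl1* and *Bmp1* were higher in each mutant library by 0.09 and 0.07 on the log2 scale, with edgeR adjusted p values of 0.693 and 0.748.

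Inside the cell, the 4 Smad genes had a median log2 fold change of −0.03. *Smad1*, a receptor-activated Smad, was at −0.05 (edgeR adjusted p = 0.855), and the shared partner *Smad4* was at −0.03 (0.870). The 9 intracellular inhibitors lay between −0.07 and 0.11, with *Ski*, a Smad co-repressor, at −0.07 (edgeR adjusted p = 0.763). *Bambi*, which encodes a decoy receptor and is itself a BMP target, was at 0.11 (0.803), and *Ppm1a*, a Smad phosphatase gene, was at 0.01 (0.978).

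The 14 further targets had a median log2 fold change of 0.02, with 7 above 0. *Tbx2*, a T-box repressor of the dorsal eye and the cardiac cushion region, lay at 5.27, 6.66 and 8.81 CPM in WT and at 8.74, 9.70 and 13.1 CPM in mutants. Its groups overlapped by 1 library, with a log2 fold change of 0.61 ± 0.22 (SE), an unadjusted edgeR p of 0.0259 and an adjusted p of 0.514. Both the cardiac sum and *Tbx2* were lowest in WT replicate 1 and highest in mutant replicate 3. The part of cardiac cells in the *Tbx2* values was not tested. *Atoh8* was at −0.14 (edgeR adjusted p = 0.683) and *Hey1* at −0.02 (0.974).

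**Figure D5:**
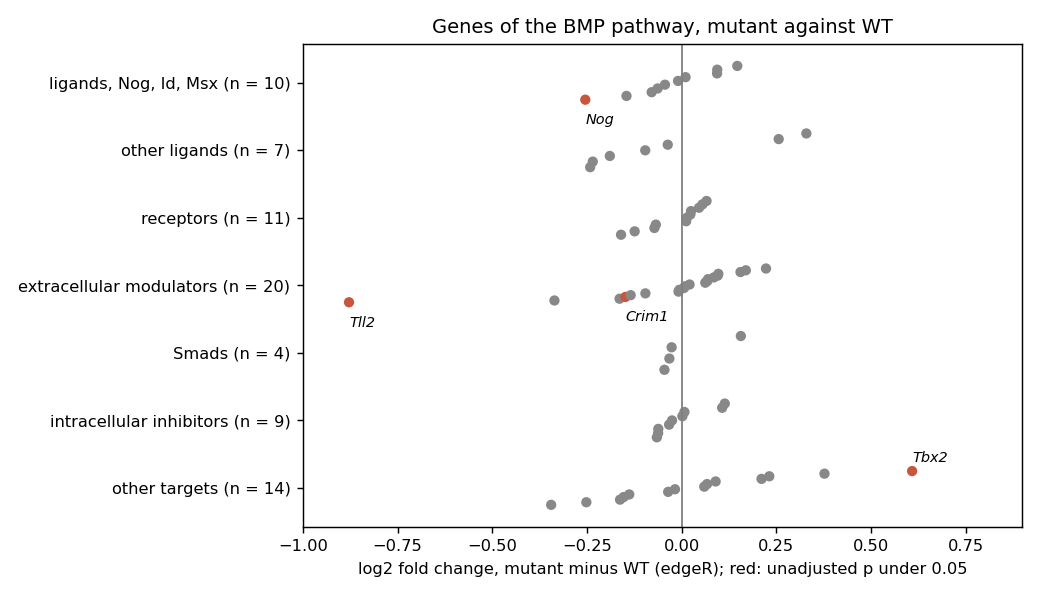
Log2 fold change, mutant minus WT, from edgeR (x axis) of the 10 genes and of the tested genes of 6 other BMP lists (rows), 1 point per gene, with unadjusted p under 0.05 in red and named. *Nog*, *Tll2*, *Crim1* and *Tbx2* are the red points, and none passed an adjusted p of 0.05.

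As a last description, promoters were searched for motifs that BMP-activated Smads are known to bind, because the *Id* and *Msx* genes are direct targets. RefSeq promoter sequences on GRCm38.p6 (250 bases before to 50 after the start) matched 6 of the 10 genes: *Bmp4*, *Bmp5*, *Id2*, *Id3*, *Msx1* and *Msx2*. The GC-rich motif GGCGCC, its own reverse complement, was found in *Id2* and in 11.9% of 32851 promoters. GCCGNCGC, searched on both strands, was found in *Msx1* and *Msx2* and in 9.76% of promoters. The palindrome GTCTAGAC was in 0.213% of promoters and in none of the 6, and no binding was measured here. Counted from the RefSeq start, the motifs lay at −231 to −226 (*Id2*), −5 to 2 (*Msx1*) and −87 to −80 (*Msx2*). The *Id2* and *Msx2* windows lie inside the gene coordinates given above, whose starts differ from those of RefSeq. The 3 windows of 30 bases are printed 5′ to 3′ on the gene's strand (minus for each), with the motif in capitals, at chr12:25096306-25096335 for *Id2*, chr5:37824572-37824601 for *Msx1*, where the match is on the opposite strand, and chr13:53472849-53472878 for *Msx2*:
Id2: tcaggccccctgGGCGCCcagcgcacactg
Msx1: ttctcaggggaGCGGCGGCggacccggagc
Msx2: tcaggagcaggGCCGTCGCcagttggttga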

How the data were processed

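The authors isolated RNA from heads at E9.0, depleted ribosomal RNA, made stranded libraries and sequenced them paired-end. By their methods, reads were trimmed, mapped to mm10 with STAR and counted with HTSeq on Gencode M2. The submitters' processing notes name Trim Galore, STAR, featureCounts and MultiQC, so the counter and its strand setting stay uncertain. The deposited values are raw read counts per gene symbol, whole numbers without normalization. The counts of the 3 WT libraries sum to 36378803, 58946111 and 37349643 reads, and those of the 3 mutant libraries to 42398206, 74909774 and 66455078. For genes with many reads the spread between pools set the precision (common biological coefficient of variation 0.0871), and p-values measure that spread together with counting error. No pair of libraries was a duplicate, with a chi-square per degree of freedom of at least 9.74 after scaling for depth.

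From the counts, edgeR (version 4.0.16, R version 4.3.3) was run with TMM factors, filterByExpr by genotype (minimum count 10; 15584 genes kept, 8837 removed), a robust quasi-likelihood fit and a two-sided test of genotype alone, with Benjamini-Hochberg adjustment and a threshold of 0.05. Intervals are 95% intervals from the t quantile and the SE. Log2 CPM values used a prior count of 2. RPKM values use exon lengths of Gencode M21 on mm10, an annotation later than that of the authors, to which 23376 of 24421 symbols matched. DESeq2 (version 1.42.0) was run on the 21083 genes with at least 1 count and gave 8175 of them no adjusted p, which stayed missing. Both tools and the coverage of the intervals were tested on simulated data. Plots used Python (version 3.11.15) with matplotlib (version 3.10.9).

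The alternatives were DESeq2, DESeq2 size factors, library size alone, no filter, a minimum of 10 counts per library, a replicate block, the Y-linked level as a covariate and leaving out 1 library at a time. The 10 genes and all lists were chosen with earlier results of these data known. Named were the 10 genes, *Snrpb*, from each BMP list the 2 genes with the lowest p and that with the highest mean CPM, and the 3 nearest patterns of the 3 most variable genes, of which 1 is not reported here. *Chrdl1*, *Bmp1*, *A3galt2*, *Otx2*, the single markers *Lmx1a*, *Wnt1*, *Grhl3*, *Trp63* and *Krt5*, and the genes not tested were named after their values were seen.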

Additional observations from a re-analysis of the deposited data

How the results depend on the processing

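None of the 10 genes and none of the other BMP genes passed an adjusted p of 0.05 in edgeR or under any of 13 alternatives. *Nog* kept its direction in all 13, between −0.31 and −0.22 with a library left out and between −0.29 and −0.24 otherwise. Its unadjusted p was under 0.05 with size factors (0.0385), library size (0.0490), no filter (0.0482), a minimum of 10 (0.0435) and without WT replicate 3 (0.0253), but was 0.0547 with DESeq2, 0.110 with the Y covariate and between 0.0643 and 0.125 when any of the other 5 libraries was left out (0.0738 without WT replicate 1, 0.113 without WT replicate 2, and 0.0643, 0.125 and 0.0693 without mutant replicates 1, 2 and 3). The median of the 10 genes lay between −0.07 and 0.03 with a library left out. Over all genes, edgeR called 1, DESeq2 84, no filter 11, the Y covariate 0, and leaving out a library 0 to 6 (6 without WT replicate 1, 5 without mutant replicate 1). Same-numbered libraries correlated at 0.17, 0.03 and 0.36 in their deviations from the group means, and libraries of different numbers between −0.25 and 0.09. Mutant replicates 1 and 3 were closest to the WT replicate of the same number, but mutant replicate 2 was closest to WT replicate 1. Whether the numbers pair the samples cannot be told from these values. With the replicate block, 1 gene was called over all, 0 of the 10 genes were called, and *Nog* was at −0.25 (unadjusted p 0.0685).

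Signs changed only for log2 fold changes far from the threshold. With the Y covariate *Bmp2* went to −0.0088, *Id1* to 0.10, *Id2* to 0.0070, *Msx2* to 0.063, *Acvr2a* to 0.037, *Fstl1* to −0.049, *Smad1* to 0.0077 and *Hey1* to 0.043. With library size alone *Msx2* went to 0.0015 and *Snrpb* to 0.0074. With each library left out, the ranges were −0.028 to 0.22 for *Bmp4*, −0.042 to 0.069 for *Bmp7*, −0.16 to 0.046 for *Id1*, −0.10 to 0.061 for *Msx2*, −0.026 to 0.019 for *Snrpb*, −0.24 to 0.0060 for *Gdf10*, −0.031 to 0.051 for *Bmpr1a*, −0.10 to 0.13 for *Fstl1*, −0.0014 to 0.21 for *Bambi*, −0.021 to 0.026 for *Ppm1a* and −0.12 to 0.046 for *Hey1*. The cause of these shifts was not tested. *Tll2* has no value with the minimum of 10 counts.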
